A study of Mus musculus with 27 samples.

Results

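The heat shock genes described here were 10 of the 51789 gene IDs in a count table of mouse ovary RNA, those whose Ensembl ID carries 1 of 10 listed symbols in the GENCODE M21 annotation. They encode the small heat shock proteins Hspb8, Hspb1 and Cryab, the cochaperone Bag3, the HSP70 proteins Hspa1a, Hspa1b and Hspa8, the HSP90 protein Hsp90aa1, the J-domain protein Dnajb1 and the HSP110 protein Hsph1. Hspb8 was selected on its measured levels in the drug-treated and aged untreated ovaries, which moved in opposite directions under the 2 drugs of the study. The other 9 were listed by symbol, with earlier results of these data known. Because Hspb8 was selected on its levels, its values are given as a description without a test. Counts of genes that passed a test are over the other 9, whose p-values do not account for how the list was chosen. All 10 had enough counts to be fitted in every comparison.

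Chaperones bind unfolded stretches of other proteins and hold, refold or hand them on for breakdown. Small heat shock proteins hold unfolded clients without using ATP, HSP70 proteins fold them in ATP-driven cycles that J-domain proteins start and nucleotide exchange factors end, and HSP90 acts late, on clients such as kinases and steroid receptors. Bag3 joins HSP70 to Hspb8 and directs clients to autophagy. Many of these genes are switched on by heat shock factor 1, which binds inverted repeats of the bases GAA, the heat shock element, in their promoters.

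The study asked how young and aged ovaries differ, and what inhibitors of thioredoxin reductase, an enzyme that keeps thioredoxin reduced, do in aged mice. Experiment 1 held 5 young untreated, 4 aged untreated and 4 aged mice treated with TRi-1, an inhibitor of cytosolic thioredoxin reductase. Experiment 2 held 5 young untreated, 5 aged untreated and 4 aged mice treated with Auranofin, a gold compound that acts on the same enzyme family. Strain, age, dose and duration are not stated, nor is a vehicle for the untreated mice, and the labels do not say whether mice were pooled for a library. Counts came from 3' tag sequencing of polyA RNA and totalled 6460903 to 14814381 per library. Levels below are CPM (counts scaled to a common library total), on normalised library sizes.

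Oocyte, granulosa and immune markers separated young from aged untreated ovaries, except in 1 library. Of 17 oocyte genes tested in experiment 1, 16 were lower in aged ovaries, and of 15 in experiment 2, 10 were. Summed over 20 oocyte genes, the level was 288 to 513.5 CPM in young and 10.4 to 24.9 CPM in aged untreated ovaries of experiment 1. In experiment 2 it was 84.1 to 234 CPM in 4 young and 11.0 to 15.9 CPM in aged untreated ovaries. Young mouse 3 of experiment 2 went against its age label there, at 14.4 CPM. Its granulosa and cumulus markers, at 383 CPM, also lay in the aged range of 261 to 1024 CPM, and its luteal markers, at 181 CPM, were the lowest of all 27 libraries. Its lymphocyte and macrophage markers were in the young range. Without this library the same gene of the 9 tested, Hspb1, passed with age in experiment 2, and the same 4 passed over both experiments. With age 14 of 14 lymphocyte genes and 12 of 14 macrophage genes rose in experiment 1, and 13 and 11 of them in experiment 2. That library and auranofin mouse 4 stood apart from their groups, with median rank correlations of 0.872 and 0.877 to the other libraries of their groups, against 0.897 to 0.952 in the other 25.

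Promoters of 4 members are shown: Hspb8, on which the choice of genes rests, Hspb1, which passed with age in both experiments, and Hspa1a and Hspa1b, which share nearly 1 promoter sequence while their counts parted in experiment 1. Each runs from 250 bases before the RefSeq start to 9 bases beyond the start base (GRCm38.p6, gene strand). Capitals mark GAANNTTC, in which N is any base, which is 2 inverted units of the heat shock element. Hspb8 and both Hspa1 genes lie on the minus strand, at chr5:116422855-116423114, chr17:34972147-34972406 and chr17:34959229-34959488, and Hspb1 on the plus strand at chr5:135887669-135887928.
Hspb8: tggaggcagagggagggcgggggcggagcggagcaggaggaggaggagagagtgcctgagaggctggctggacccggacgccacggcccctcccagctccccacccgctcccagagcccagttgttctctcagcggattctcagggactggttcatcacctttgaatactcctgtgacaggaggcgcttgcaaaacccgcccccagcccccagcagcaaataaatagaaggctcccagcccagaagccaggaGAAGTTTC
Hspb1: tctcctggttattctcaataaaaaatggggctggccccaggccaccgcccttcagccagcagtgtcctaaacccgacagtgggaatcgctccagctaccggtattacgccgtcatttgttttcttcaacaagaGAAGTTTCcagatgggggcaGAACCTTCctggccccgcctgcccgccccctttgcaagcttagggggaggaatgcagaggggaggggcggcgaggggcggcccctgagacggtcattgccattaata
Hspa1a: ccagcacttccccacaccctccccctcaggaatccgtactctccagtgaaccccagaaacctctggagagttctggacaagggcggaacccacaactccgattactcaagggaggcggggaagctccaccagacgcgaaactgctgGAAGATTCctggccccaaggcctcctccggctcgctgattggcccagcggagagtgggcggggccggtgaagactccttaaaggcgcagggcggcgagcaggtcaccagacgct
Hspa1b: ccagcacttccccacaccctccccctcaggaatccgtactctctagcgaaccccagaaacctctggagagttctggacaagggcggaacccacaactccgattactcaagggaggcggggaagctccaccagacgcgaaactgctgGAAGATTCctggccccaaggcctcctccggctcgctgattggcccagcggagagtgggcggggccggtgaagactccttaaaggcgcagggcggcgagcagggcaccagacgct
The Hspb1 promoter held 2 such matches, which begin 117 and 97 bases before the start. In Hspa1a and Hspa1b the only match began 104 bases before the start. Their whole promoter entries, which run beyond the bases shown, were the same at 296 of 300 bases. Matches were also searched in the whole entries. The match of Hspb8 began 2 bases after its start base. RefSeq's promoter table had an entry for 7 of the 10 genes, not for Cryab, Hspa8 and Hsp90aa1. GAANNTTC or TTCNNGAA, searched on both strands, occurred in 6 of these 7 against 15.1% of all 32851 promoters, and a run of 3 alternating units in Hsph1 against 0.603% of all. That run is GAANNTTC followed by NNGAA, or the reverse complement, and contains both shorter motifs. Such a match is a description of the letters and not a binding site.

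**Figure D1:**
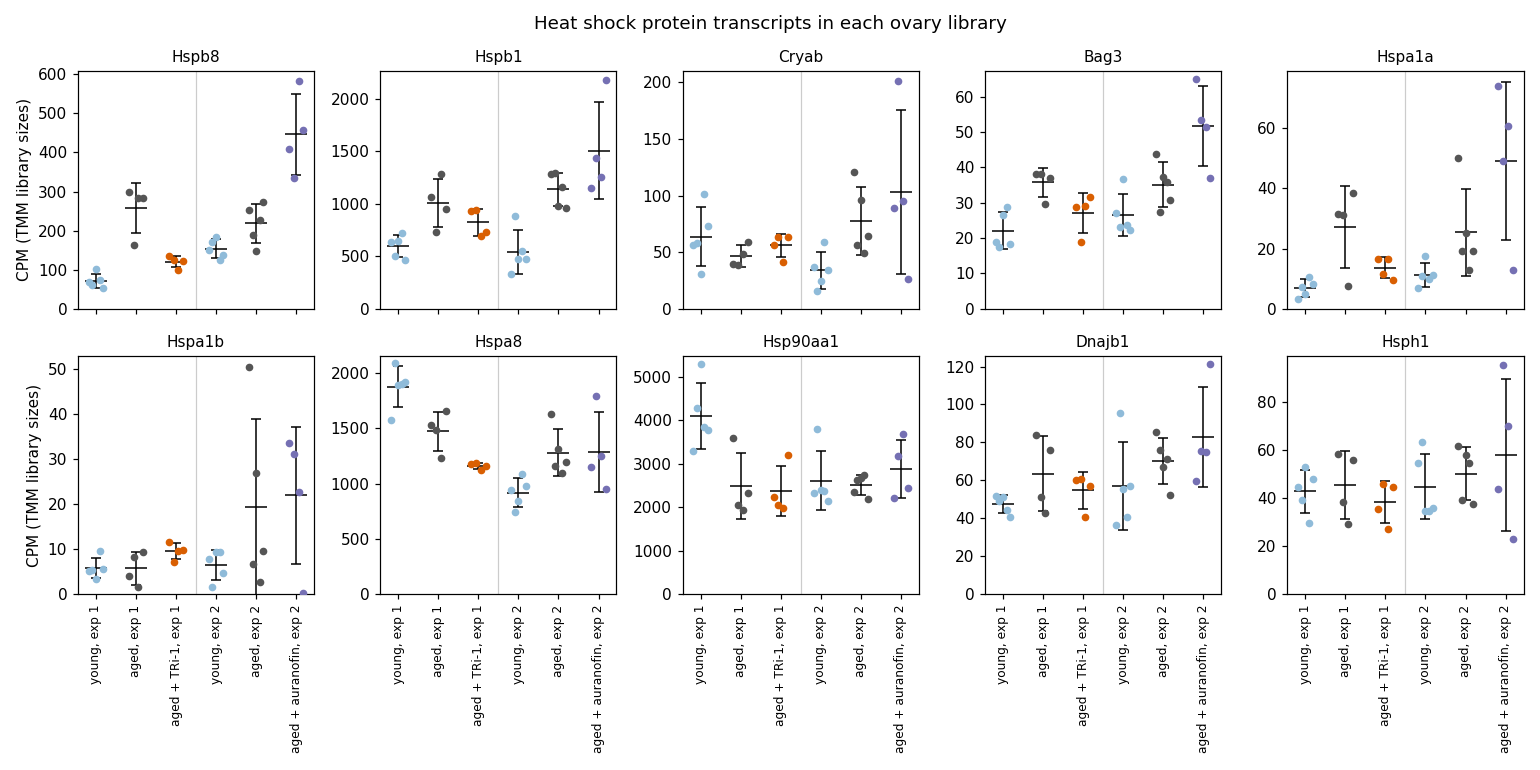
Level of each of the 10 genes (CPM, y axis, a separate scale per gene) in each library, by group (x axis). Points are single libraries, horizontal bars group means and whiskers ± SD. Hspb8 libraries sit at 335 to 582 CPM under auranofin and at 100.5 to 134 CPM under TRi-1, against 149 to 299.8 CPM in all 9 aged untreated ovaries.

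Among the small heat shock proteins, Hspb8 and Hspb1 were both higher in aged than in young ovaries of each experiment, by the group means. Hspb8, which forms a complex with Bag3, had 68.9, 60.6, 101, 74.8 and 52.5 CPM in the young mice of experiment 1. The aged untreated mice had 299.8, 162, 284 and 283.7 CPM, and the TRi-1 mice 134, 124, 100.5 and 123 CPM. Every aged untreated library was above every young one, and every TRi-1 library was below every aged untreated one. In experiment 2 the values were 151.5, 171, 183, 124 and 138 CPM in young and 253.5, 190.0, 149, 226 and 273 CPM in aged untreated mice. The auranofin mice had 410.0, 335, 582 and 458 CPM. Here young and aged overlapped, and every auranofin library was above every aged untreated one. As log2 fold changes ± SE, the differences were 1.85 ± 0.22 with age in experiment 1, 0.51 ± 0.21 with age in experiment 2, -1.11 ± 0.23 under TRi-1 and 1.01 ± 0.23 under auranofin. Without young mouse 3 the age difference of experiment 2 was 0.58 ± 0.23. Cell type markers varied widely between auranofin mice. Lymphocyte markers, summed over 14 genes, were at 644.8, 4213, 1848 and 24460 CPM in mice 1 to 4, against 5640 to 14110 CPM in aged untreated mice. Mouse 3, the highest for Hspb8, had smooth muscle markers at 11060 CPM and macrophage markers at 1548 CPM, against 2873 to 6225 and 4445 to 8224 CPM in aged untreated mice. Adipocyte markers of mouse 4 were at 12130 CPM, the highest of all 27 libraries. Without mouse 3 the auranofin difference of Hspb8 was 0.85 ± 0.23, and without mouse 4 it was 1.02 ± 0.24. Among TRi-1 mice, mouse 4 had granulosa and cumulus markers at 2373 CPM, against 328 to 501 CPM in aged untreated mice, and without it the TRi-1 difference was -1.09 ± 0.26. The part of these cells in the results was not tested. In bulk RNA, fewer cells that hold a transcript and less of it per cell cannot be told apart. Hspb8 was selected on its drug levels, so its values with a library left out are a description only. Their SE do not account for that selection.

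Ordered by group mean, Hspb8 was lowest in young ovaries of experiment 1 at 71.6 ± 18.5 CPM (SD, n = 5). TRi-1 ovaries followed with 120.4 ± 14.2 CPM (SD, n = 4), and young ovaries of experiment 2 with 153.5 ± 24.0 CPM (SD, n = 5). Aged untreated ovaries had 218 ± 49.8 CPM in experiment 2 (SD, n = 5) and 257 ± 64.0 CPM in experiment 1 (SD, n = 4), and auranofin ovaries 446 ± 104 CPM (SD, n = 4). Neighbouring groups in this order overlapped, except that auranofin stood above all others. The 2 young groups did not overlap, with 52.5 to 101 CPM in experiment 1 and 124 to 183 CPM in experiment 2. How many of all genes differed so between experiments was not counted. The 2 drugs were given in different experiments, so drug and experiment cannot be told apart.

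The 5 genes whose log2 CPM, centred on its mean over the 27 libraries, ran closest to that of Hspb8 were Nxn, Atf4, Adrm1, Trim47 and Vegfd. Their root mean square differences were 0.39, 0.41, 0.42, 0.44 and 0.44 on the log2 scale, among 10785 genes ranked, where Hspb8 itself varied by 0.88 around its mean. Nxn encodes the thioredoxin-family protein nucleoredoxin, and Atf4 the transcription factor of the integrated stress response. Mean levels of Nxn in experiment 1 were 42.9 CPM in young, 98.7 CPM in aged untreated and 62.2 CPM in TRi-1 ovaries. In experiment 2 they were 76.5, 101.5 and 143 CPM in young, aged untreated and auranofin ovaries. These libraries share depth, scaling and cell makeup, and the order of the list is a description. The ranking used the libraries on which Hspb8 was selected, so Nxn means that move like those of Hspb8 follow from the ranking.

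Hspb1 (Hsp27 in human) holds unfolded clients and binds actin, and it was the member that rose with age in both experiments. Young mice of experiment 1 had 639, 506, 641, 725 and 469 CPM, aged untreated mice 1065, 736, 1282 and 954.5 CPM. In experiment 2 young mice had 329.7, 886, 473, 551 and 474 CPM and aged untreated mice 1286, 1291, 979.6, 1162 and 961 CPM. All aged untreated libraries lay above all young ones in each experiment. The log2 fold change was 0.77 ± 0.19 in experiment 1 (edgeR adjusted p = 0.0051) and 1.06 ± 0.26 in experiment 2 (edgeR adjusted p = 0.016). Over both experiments it was 0.91 ± 0.16 (edgeR adjusted p = 7.5e-05). Without young mouse 5, aged mouse 3 and TRi-1 mouse 1, the effect of experiment 1 was 0.51 ± 0.21 and did not pass (edgeR adjusted p = 0.092), and without young mouse 3 that of experiment 2 was 1.01 ± 0.28 (edgeR adjusted p = 0.032). Under TRi-1 the 4 libraries had 693.6 to 937 CPM, with a log2 fold change of -0.31 ± 0.20 (edgeR adjusted p = 0.46). Under auranofin they had 1147 to 2173 CPM, with 0.39 ± 0.27 (edgeR adjusted p = 0.82), and both drug groups overlapped aged untreated. Of the 50-base windows in the last 500 bases of Hspb1 transcripts, 39.2% also occur in the pseudogene Hsp25-ps1, to which the table assigns 30 counts in all against 269510 for Hspb1.

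Cryab, alpha-B crystallin, is abundant in lens and muscle. It had 30.4 to 101 CPM in young and 39.1 to 59.0 CPM in aged untreated ovaries of experiment 1, and 15.4 to 59.1 CPM and 49.4 to 121 CPM in experiment 2. Its log2 fold change with age was -0.43 ± 0.27 in experiment 1 (edgeR adjusted p = 0.23) and 1.198 ± 0.451 in experiment 2 (edgeR adjusted p = 0.11). The 2 age effects differed by 1.63 ± 0.56 (edgeR adjusted p = 0.24), which did not pass. The age effect of experiment 2 passed when auranofin mouse 4, the lowest Cryab library of its group at 26.7 CPM, was left out of the shared fit (edgeR adjusted p = 0.045). Cryab lies over the opposite strand of Hspb2, and the strand used in counting is not stated, so reads of the pair may not be separated. Smooth muscle markers, summed over 12 genes, were at 3178 to 6680 CPM in young ovaries of experiment 2. In its aged untreated ovaries they were at 2873 to 6225 CPM, and 0 of 12 passed with age. In experiment 1, 1 of these 12 genes rose with age and 1 fell. Of 7 skeletal muscle genes tested, 1 rose and 1 fell in experiment 1, and 0 passed in experiment 2. The part of muscle cells in the Cryab levels was not tested.

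Bag3, the cochaperone that links Hspb8 to HSP70, had 19.0, 17.5, 26.5, 28.8 and 18.4 CPM in young mice of experiment 1 and 38.2, 38.2, 29.6 and 37.1 CPM in aged untreated mice. The groups did not overlap, and the log2 fold change was 0.71 ± 0.21 (edgeR adjusted p = 0.015). Without young mouse 5, aged mouse 3 and TRi-1 mouse 1 it was 0.69 ± 0.25 and did not pass (edgeR adjusted p = 0.06). In experiment 2 young mice had 26.96, 23.0, 36.6, 23.8 and 22.2 CPM and aged untreated mice 43.9, 27.4, 37.3, 35.9 and 30.7 CPM. There the groups overlapped through young mouse 3, with 0.40 ± 0.21 (edgeR adjusted p = 0.28), or 0.55 ± 0.21 without that mouse (edgeR adjusted p = 0.11), while the effect over both experiments was 0.55 ± 0.14 (edgeR adjusted p = 0.0039). TRi-1 mice had 28.8, 19.0, 29.0 and 31.7 CPM and auranofin mice 64.9, 53.5, 51.4 and 37.1 CPM. The log2 fold changes were -0.42 ± 0.22 under TRi-1 (edgeR adjusted p = 0.35) and 0.55 ± 0.22 under auranofin (edgeR adjusted p = 0.63). Bag3 overlaps the unclassified transcript 2610306O10Rik on its own strand.

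**Figure D2:**
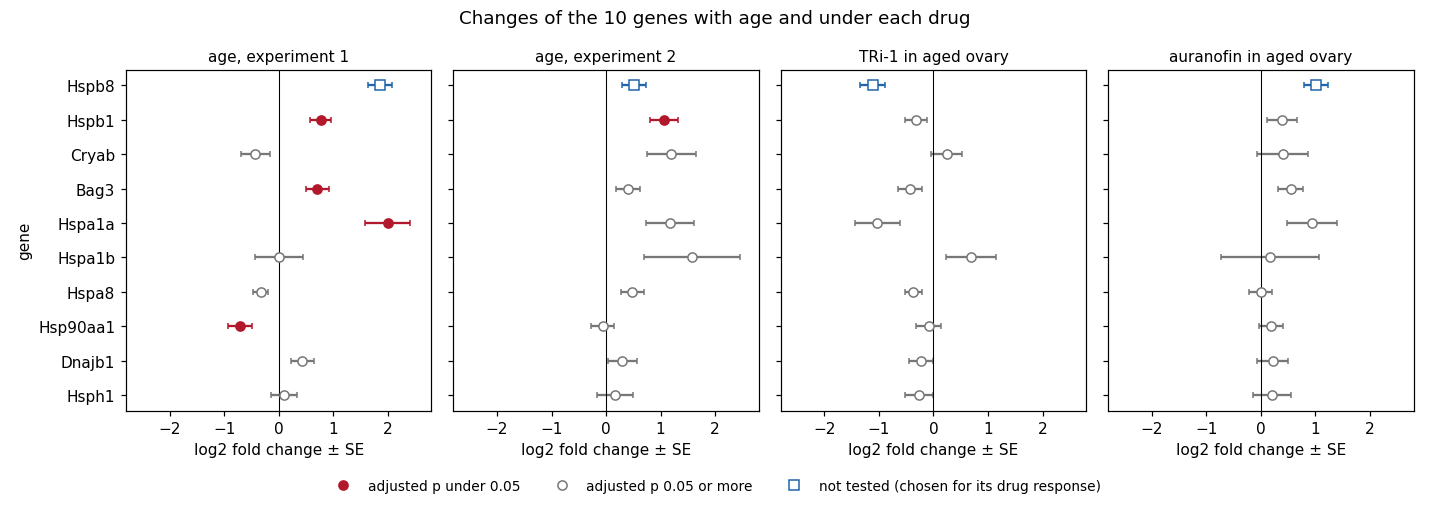
Log2 fold change (x axis) of each gene (y axis) in 4 comparisons, with whiskers of ± SE. Filled points passed an edgeR adjusted p of 0.05, open circles did not, and the square is Hspb8, which was not tested. With age in experiment 1, Hspb1, Bag3 and Hspa1a were filled to the right of 0 and Hsp90aa1 to the left, and under either drug no circle was filled.

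Of the HSP70 genes, Hspa1a, which is strongly induced by heat and other stress, rose with age in experiment 1. Young mice had 3.28, 7.28, 5.01, 10.6 and 8.32 CPM and aged untreated mice 31.5, 31.2, 7.58 and 38.4 CPM. Aged mouse 3 lay within the young range and the other 3 were above it. The log2 fold change was 2.00 ± 0.41 (edgeR adjusted p = 0.0014). In experiment 2 young mice had 6.92, 10.9, 17.7, 9.82 and 11.1 CPM and aged untreated mice 50.2, 19.1, 25.3, 13 and 19.4 CPM. These overlapped, with 1.18 ± 0.44 (edgeR adjusted p = 0.11), and the effect over both experiments was 1.57 ± 0.32 (edgeR adjusted p = 0.00031). Without auranofin mouse 4 in the shared fit, the age effect of experiment 2 was 1.15 ± 0.34 and passed (edgeR adjusted p = 0.039), and without young mouse 3 it was 1.40 ± 0.47 (edgeR adjusted p = 0.068).

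Hspa1a was spread more widely among auranofin than among TRi-1 mice. TRi-1 mice had 16.5, 11.6, 16.7 and 9.67 CPM, below 3 of the 4 aged untreated mice, with -1.02 ± 0.42 (edgeR adjusted p = 0.24). Auranofin mice had 74.2, 49.1, 60.6 and 12.8 CPM, and mouse 4 fell below every aged untreated mouse. The log2 fold change was 0.94 ± 0.45 (edgeR adjusted p = 0.72). Without auranofin mouse 4 it was 1.26 ± 0.38 and did not pass (edgeR adjusted p = 0.34). The 5 genes that ran closest to Hspa1a over the 27 libraries were Fgf2, Rnf19b, Ttc9, Rrs1 and Pprc1, with root mean square differences from 0.64 to 0.70 on the log2 scale, where Hspa1a varied by 1.09.

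Hspa1b, the neighbouring gene that encodes nearly the same protein, did not follow Hspa1a in experiment 1. Young mice had 3.34 to 9.56 CPM and aged untreated mice 1.497 to 9.23 CPM, with a log2 fold change of 0.01 ± 0.44 (edgeR adjusted p = 0.99). TRi-1 mice had 7.09 to 11.6 CPM, with 0.69 ± 0.46 against aged untreated (edgeR adjusted p = 0.48). In experiment 2 the aged untreated mice had 50.3, 6.69, 26.9, 2.71 and 9.60 CPM against 1.66 to 9.36 CPM in young, with 1.57 ± 0.88 (edgeR adjusted p = 0.31). Auranofin mouse 4 had 2 counts of Hspa1b, 0.166 CPM, while the other 3 had 22.7 to 33.5 CPM.

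As a share of the counts of both genes, Hspa1a made up 79.1% to 88.9% in the 4 aged untreated mice of experiment 1. It made up 39.2% to 60% in the 5 young mice and 49.7% to 63.4% in the 4 TRi-1 mice, so neither group overlapped with aged untreated. In experiment 2 the shares overlapped, at 46.9% to 86.8% in young, 48.5% to 82.8% in aged untreated and 61.2% to 98.7% in auranofin mice. These shares rest on as few as 45 counts of the pair in a library and were not tested. Summing the pair into 1 row gave 1.39 ± 0.37 with age in experiment 1 (edgeR adjusted p = 0.0088) and 1.34 ± 0.52 in experiment 2 (edgeR adjusted p = 0.13). The last 500 transcript bases of either gene share 0 windows of 50 bases with any other gene, so tags there differ between them, but how the authors' counting treated reads that match both is not stated. Hspa1a also overlaps Gm20481 on the opposite strand.

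**Figure D3:**
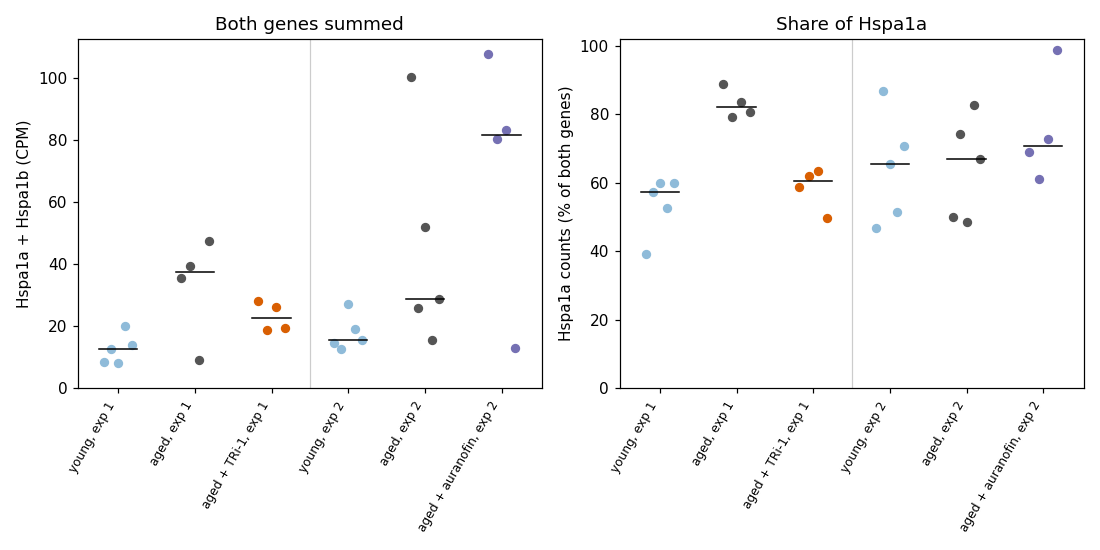
Summed level of Hspa1a and Hspa1b (left, CPM) and the share of Hspa1a in their summed counts (right, %) in each library, by group, with bars at the group medians. The 4 aged untreated libraries of experiment 1 lie at 79.1% to 88.9% and the young and TRi-1 libraries of that experiment at 39.2% to 63.4%.

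Hspa8, the constitutive HSP70 that is present in unstressed cells, moved in opposite directions with age in the 2 experiments by its group means. Young mice of experiment 1 had 1575, 2089, 1896, 1901 and 1917 CPM, aged untreated mice 1527, 1482, 1235 and 1654 CPM and TRi-1 mice 1179, 1183, 1119 and 1157 CPM. Young mice of experiment 2 had 943, 747, 839, 1084 and 978 CPM, aged untreated mice 1630.0, 1160.0, 1314, 1092 and 1198 CPM and auranofin mice 1152, 1792, 1251 and 948 CPM. All aged untreated libraries were above all young ones in experiment 2, and all TRi-1 libraries were below all aged untreated ones. The young mice of the 2 experiments did not overlap either, but how many of all genes differed so between experiments was not counted. The log2 fold change with age was -0.33 ± 0.14 in experiment 1 (edgeR adjusted p = 0.086) and 0.48 ± 0.21 in experiment 2 (edgeR adjusted p = 0.16). Their difference was 0.82 ± 0.24, which missed the threshold in edgeR (adjusted p = 0.16) and passed it in DESeq2 (adjusted p = 0.034). In experiment 1 the age effect passed in edgeR without young mouse 1, at -0.43 ± 0.14 (adjusted p = 0.031), and in DESeq2, at -0.37 ± 0.14 (adjusted p = 0.025). In experiment 2 it passed in a single fit of all 27 libraries, at 0.48 ± 0.16 (edgeR adjusted p = 0.049). Under TRi-1 the log2 fold change was -0.37 ± 0.15 (edgeR adjusted p = 0.24), and under auranofin it was 0.00 ± 0.22 (edgeR adjusted p = 1). Of the windows of 50 bases at the 3' end of Hspa8, 68.6% occur in other genes, 11 in all, and the 10 of these in the table hold 570 counts against 367273 for Hspa8.

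Hsp90aa1, the stress-inducible cytosolic HSP90 that is also abundant in germ cells, fell with age in experiment 1. Young mice had 3302, 4272, 5300.0, 3839 and 3766 CPM and aged untreated mice 3601, 2052, 1943 and 2329 CPM, with only aged mouse 1 inside the young range. The log2 fold change was -0.72 ± 0.22 (edgeR adjusted p = 0.018), and without aged mouse 2 it was -0.64 ± 0.24 and did not pass (edgeR adjusted p = 0.053). Nor did it pass without young mouse 5, aged mouse 3 and TRi-1 mouse 1 (edgeR adjusted p = 0.065). In experiment 2 young mice had 2149 to 3809 CPM and aged untreated mice 2193 to 2736 CPM, with -0.06 ± 0.21 (edgeR adjusted p = 0.91). The effect over both experiments was -0.39 ± 0.15 (edgeR adjusted p = 0.044), and it no longer passed without any 1 of 7 libraries, which were young mouse 3 and aged mouse 3 of experiment 1 and young mouse 2 and aged mice 1, 2, 3 and 5 of experiment 2. The highest adjusted p was 0.10, without young mouse 2 of experiment 2. It also did not pass with no filter on low counts (edgeR adjusted p = 0.085), with haemoglobin genes left out (edgeR adjusted p = 0.057) or without young mouse 5, aged mouse 3 and TRi-1 mouse 1 of experiment 1 (edgeR adjusted p = 0.074). Oocyte markers moved the same way in experiment 1. Zp2, Zar1, Figla and Nobox had 0 counts in all its aged untreated libraries, and no oocyte gene was at 0 throughout its young ones. Granulosa and cumulus cell markers, summed over 16 genes, were at 1065 to 2213 CPM in young ovaries there. In the aged untreated ovaries they were at 328 to 501 CPM, with Amh and Fshr at 0. Amh was also at 0 in the young ovaries of experiment 2. In experiment 2, 10 of 15 oocyte genes and 3 of 14 granulosa and cumulus genes tested also fell with age, while Hsp90aa1 did not pass. The part of these cells in the result was not tested. TRi-1 and auranofin gave -0.09 ± 0.23 (edgeR adjusted p = 0.89) and 0.19 ± 0.22 (edgeR adjusted p = 0.91). Of the 50-base windows at the 3' end of Hsp90aa1, 24.7% occur in the 2 genes Gm12346 and Gm5844, which hold 10861 counts against 760674 for Hsp90aa1.

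Dnajb1, the J-domain partner of stress-induced HSP70, had 40.9 to 51.7 CPM in young and 42.5 to 84.0 CPM in aged untreated ovaries of experiment 1, with 0.43 ± 0.21 (edgeR adjusted p = 0.12). In experiment 2 it had 36.2 to 95.7 CPM in young and 52.2 to 85.2 CPM in aged untreated ovaries, with 0.30 ± 0.27 (edgeR adjusted p = 0.57). Over both experiments the effect was 0.36 ± 0.17 (edgeR adjusted p = 0.11), and without young mouse 2 of experiment 2, its highest young library, it was 0.50 ± 0.16 and passed (edgeR adjusted p = 0.016). Hsph1, the HSP110 protein that releases ADP from HSP70, had log2 fold changes of 0.09 ± 0.24 with age in experiment 1 (edgeR adjusted p = 0.79) and 0.17 ± 0.33 in experiment 2 (edgeR adjusted p = 0.83). Its intervals of 1.96 SE on each side ran from -0.38 to 0.57 and from -0.48 to 0.81. Its levels were 29.5 to 53.0 CPM in young and 29.0 to 58.3 CPM in aged untreated ovaries of experiment 1, and the groups overlapped in every comparison. Auranofin mice had 59.9 to 121 CPM of Dnajb1 and 22.7 to 95.4 CPM of Hsph1.

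Counted over the 9 tested genes, 3 rose and 1 fell with age in experiment 1, in a comparison where 34.9% of 16028 genes passed, 18.5% higher and 16.4% lower. At an unadjusted p under 0.05 there were 5, where 44.3% of all genes had such a p. In experiment 2, 1 rose, where 10.5% of 16309 genes passed, 5.86% higher and 4.59% lower. At an unadjusted p there were 4, where 23.3% of all genes had such a p. Over both experiments 3 rose and 1 fell, where 35.3% of 17484 genes passed, 17.5% higher and 17.8% lower, and 5 had an unadjusted p under 0.05, beside 44.1%. With 9 genes, these shares are near those of all genes. The aged libraries lay wholly above the young in 2 of 9 genes in experiment 1 and in 2 of 9 in experiment 2, against 27.5% and 11.2% of all genes without overlap in either direction. The median log2 fold change of the 9 was 0.09 in experiment 1, beside 0.02 over all genes, and 0.48 in experiment 2, beside -0.03. Without young mouse 5, aged mouse 3 and TRi-1 mouse 1, which an earlier analysis of these data left out, 1 of 9 passed in experiment 1, Hspa1a. Without auranofin mouse 4 in the shared fit, 3 of 9 passed with age in experiment 2. The difference between the 2 age effects passed for 0 of 9 in edgeR and for 0% of all genes. At an unadjusted p under 0.05 it held for Cryab, Hspa8 and Hsp90aa1, beside 11.8% of all genes, and DESeq2 called 1, Hspa8.

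Several cell type markers moved with age alongside these genes. Macrophage markers, summed over 14 genes, were at 880.3 to 1373 CPM in young and 6578 to 10310 CPM in aged untreated ovaries of experiment 1, and at 732.5 to 1465 and 4445 to 8224 CPM in experiment 2. Of 9 red blood cell genes, 8 rose in experiment 1, 2 in experiment 2 and 9 over both. Haemoglobin took 9.52% to 22.7% of counts in aged untreated and 1.87% to 8.19% in young ovaries of experiment 1, and 1.26% to 5.49% and 0.289% to 5.19% in experiment 2. Of 12 endothelial genes 6 rose in experiment 1 and 0 passed in experiment 2. Of 19 immediate early genes, which respond within minutes to stress and handling, 18 were tested, and 6 rose and 1 fell in experiment 1 and 5 rose in experiment 2. Their sum was 553 to 837 CPM in young and 632 to 1071 CPM in aged untreated ovaries of experiment 1, and 529.7 to 2110 CPM and 773 to 1194 CPM in experiment 2. Egr3 was at 0 in every group. Young mouse 3 of experiment 2 had both the highest sum of these genes among all 27 libraries and the highest Hspb8, Bag3, Hspa1a and Hspa1b of its group. Young mouse 3 of experiment 1, with the highest sum of its group, was highest for Hspb8 but not for Bag3, Hspa1a or Hspa1b. Aged mouse 3 of experiment 2 had the highest sum of its group, 1194 CPM, and the lowest Hspb8, 149 CPM. The part of handling in these levels was not tested. With haemoglobin genes left out of the counts, the call of Hsp90aa1 over both experiments was the only member's call lost, and the part of the other cells in the results was not tested.

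Under TRi-1, 0 of the 9 genes passed in edgeR and 0 in DESeq2, where 0.418% of all genes passed in edgeR. At an unadjusted p under 0.05 there were 2, Hspa1a and Hspa8, where 16.5% of all genes had such a p. The TRi-1 libraries lay wholly below aged untreated in 1 of 9, Hspa8, against 9.07% of all genes without overlap. The median log2 fold change of the 9 was -0.26, beside -0.00306 over all genes. Leaving out any 1 of the 13 libraries moved the number of genes that passed among all genes by over 1.5 times, from 67 to between 0 and 164, so the background share itself is unsteady. Macrophage markers were at 3655 to 7315 CPM under TRi-1 and 0 of 14 passed.

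Under auranofin, 0 of the 9 passed in edgeR and 0 in DESeq2, where 0.0184% of all genes passed in edgeR. At an unadjusted p under 0.05 there was 1, Bag3, where 7.04% of all genes had such a p. In none of the 9 did the auranofin libraries lie wholly apart from aged untreated, against 3.52% of all genes. The median log2 fold change of the 9 was 0.22, beside 0.02 over all genes. Auranofin mouse 4 was the lowest of its group for Cryab, Bag3, Hspa1a, Hspa1b, Hspa8 and Hsph1 and the highest for Hspb1 and Dnajb1. The age and drug comparisons of an experiment share the aged untreated mice, so a low or high library there enters both.

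The auranofin effect minus the TRi-1 effect passed for 0 of the 9 in edgeR and 0 in DESeq2, where 0.0172% of all genes passed in edgeR. At an unadjusted p under 0.05 there were 2, Bag3 and Hspa1a, where 10.9% of all genes had such a p. The difference was 0.96 ± 0.30 for Bag3 (edgeR adjusted p = 0.25) and 1.95 ± 0.65 for Hspa1a (edgeR adjusted p = 0.28), on the log2 scale. For Hsp90aa1 it was 0.27 ± 0.31, with an interval from -0.35 to 0.88 (edgeR adjusted p = 0.80). For Hspb8, chosen for this difference, it was 2.13 ± 0.32, given without a test.

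Another 90 genes of 9 chaperone lists were counted to set the members among their partners. With age in experiment 1, 19 of 85 tested rose and 14 fell, where 18.5% of all genes were higher and 16.4% lower, so the lists as a whole were near the background. Of 8 partners of chaperone-assisted autophagy 4 rose and 0 fell, with a median log2 fold change of 0.73, and of 13 TRiC chaperonin and prefoldin genes 1 rose and 5 fell, with a median of -0.38, beside 0.02 over all genes. In the other 7 lists, 4 rose and 1 fell of 14 HSP90 genes and cochaperones, and 3 and 0 of 9 HSP70 cochaperones. Of 14 J-domain proteins 3 rose and 3 fell, and of 6 heat shock factors and regulators 2 and 2. In the other small heat shock proteins it was 1 and 1 of 4, in the other HSP70 and HSP110 genes 1 and 1 of 7, and in mitochondrial chaperones 0 and 1 of 10. Sqstm1, the autophagy receptor p62, rose by 1.27 ± 0.16 (edgeR adjusted p = 3.7e-05), with 167 to 220.0 CPM in young and 353 to 502 CPM in aged untreated mice. Stub1, the ubiquitin ligase CHIP that acts on HSP70 clients, rose by 1.08 ± 0.19 (edgeR adjusted p = 0.00037). Pfdn4, a prefoldin subunit, fell by 1.69 ± 0.20 on the log2 scale (edgeR adjusted p = 1.6e-05), and Dnajc8, a J-domain protein of the nucleus, by 1.70 ± 0.25 (edgeR adjusted p = 0.0001). Hsf1, heat shock factor 1 itself, rose by 0.85 ± 0.31 (edgeR adjusted p = 0.041), and Hspe1, the mitochondrial cochaperonin, fell by 1.08 ± 0.19 (edgeR adjusted p = 0.00051). Stip1, which joins HSP70 to HSP90, rose by 0.84 ± 0.28 (edgeR adjusted p = 0.029), and the J-domain protein Dnaja1 fell by 0.73 ± 0.18 (edgeR adjusted p = 0.0056).

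**Figure D4:**
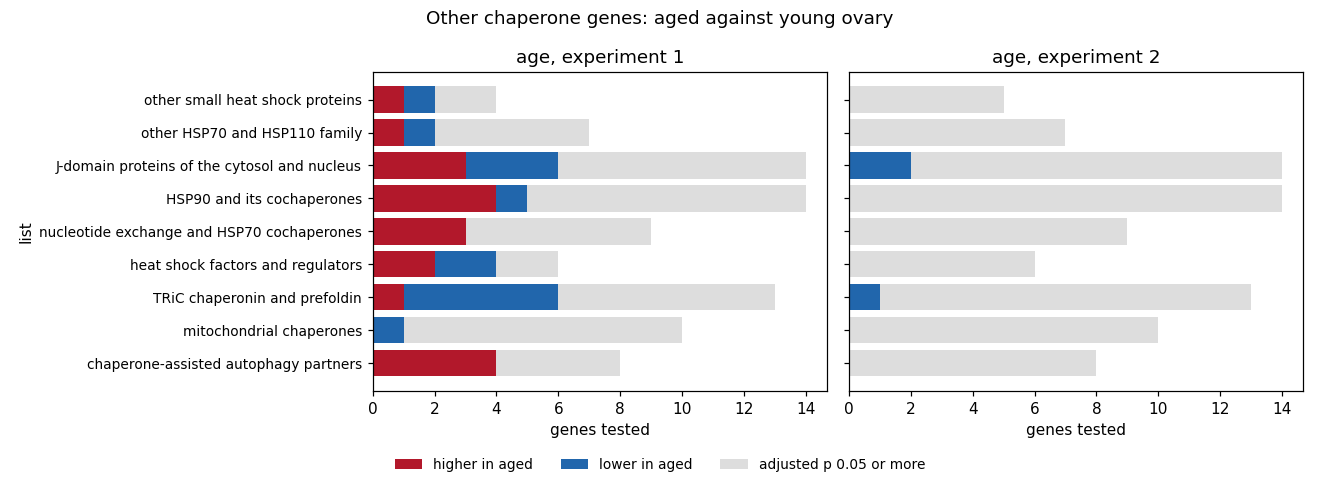
Number of tested genes (x axis) in each of 9 further chaperone lists (y axis) that were higher, lower or did not pass an edgeR adjusted p of 0.05 in aged against young ovaries. In experiment 1, 19 were higher and 14 lower of 85, and in experiment 2, 0 were higher and 3 lower of 86.

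In experiment 2, where 5.86% of all genes were higher and 4.59% lower, 0 of 86 rose with age in edgeR, 4 at an unadjusted p under 0.05 and 1 in DESeq2. There 3 fell, Pfdn4 by 1.34 ± 0.21 on the log2 scale (edgeR adjusted p = 0.00097), Dnajc8 by 1.17 ± 0.21 (edgeR adjusted p = 0.0022) and Dnajc21 by 0.93 ± 0.21 (edgeR adjusted p = 0.0089). Sqstm1 there had 0.16 ± 0.22 (edgeR adjusted p = 0.73) and Hsf1 0.36 ± 0.46 (edgeR adjusted p = 0.71). Stub1 had -0.10 ± 0.32 (edgeR adjusted p = 0.90) and Stip1 0.25 ± 0.27 (edgeR adjusted p = 0.63). Dnaja1 had -0.08 ± 0.33 (edgeR adjusted p = 0.92). Hspe1, at -0.58 ± 0.21, missed the threshold in edgeR (adjusted p = 0.089) and passed in DESeq2. The difference of the age effects passed for 0 of 87 in edgeR, where 4 were higher and 6 lower at an unadjusted p under 0.05, and for Sqstm1 in DESeq2. Over both experiments 17 of 87 rose and 12 fell, near the 17.5% and 17.8% of all genes. Among them were Hspbp1, a nucleotide exchange factor of HSP70, at 1.42 ± 0.23 (edgeR adjusted p = 1.9e-05) and Hspa4, an HSP110 protein, at -0.45 ± 0.16 (edgeR adjusted p = 0.031). Under TRi-1, 0 of 85 rose and 1 fell in edgeR, where 0.175% of all genes were higher and 0.243% lower. At an unadjusted edgeR p under 0.05, 4 were higher and 17 lower, beside 16.5% of all genes in either direction. DESeq2 called 1 higher and 5 lower. Stub1, 1 of those lower in DESeq2, missed the threshold in edgeR at -0.86 ± 0.20 (adjusted p = 0.062), with all 4 TRi-1 libraries below aged untreated. Under auranofin 0 of 86 passed in edgeR, where 3 were higher and 2 lower at an unadjusted p under 0.05, and Sqstm1 alone passed in DESeq2. Sqstm1 there had 471 to 937 CPM against 257 to 422 CPM, with no overlap and 0.97 ± 0.24 (edgeR adjusted p = 0.41), and Synpo2, which brings Bag3 to actin in muscle, 1.06 ± 0.50 (edgeR adjusted p = 0.71). The auranofin effect minus the TRi-1 effect passed for 0 of 87 in edgeR, where 0.0172% of all genes passed, and for Sqstm1 in DESeq2. At an unadjusted edgeR p under 0.05, 16 were higher and 2 lower, beside 10.9% of all genes in either direction. For Hsp90ab1, Hspd1 and Chordc1, an HSP90, the mitochondrial chaperonin and an HSP90 cochaperone, no comparison passed in edgeR. Hspd1 over both experiments, at -0.27 ± 0.12 (edgeR adjusted p = 0.088), passed in DESeq2.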

How the data were processed

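Gene counts of 27 ovary libraries were used as deposited by the authors, as whole-number counts per Ensembl gene ID. Per the submitters' processing notes, mm10, DESeq2 and RSEM 1.2.3 were used, in roles that are not given, and the annotation, filters and strand of counting are not given in the sources used here. GENCODE M21 gave a symbol to 51596 of 51789 IDs, and groups came from the labels. Each label gives a mouse and a replicate number, taken here as separate mice. If they are not, the p-values measure only the spread between these libraries.

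In R 4.3.3 with edgeR 4.0.16, genes kept by filterByExpr (minimum count 10) were TMM-scaled and tested by quasi-likelihood F tests. A single model held the 3 group means of an experiment, and effects over both experiments and differences of effects came from a fit of all 27 libraries. P-values were Benjamini-Hochberg adjusted over all genes tested, with a threshold of 0.05, and the SE is the log2 fold change over the square root of F. Log2 CPM used a prior count of 2. Alternatives were RLE size factors, DESeq2 1.42.0, no filter or at least 5 CPM, other sets of libraries in the fit, the replicate number as a block, haemoglobin genes left out, Hspa1a and Hspa1b summed and each library left out. Python 3.11.15 with matplotlib 3.10.9 drew the plots.

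The 10 genes, the further chaperone and marker lists and how genes are named were all chosen with earlier results of these data known. Named are all 10 members, for each comparison up to 4 genes of smallest p that passed from the further chaperone lists, 11 fixed chaperone genes, and the 5 genes nearest in pattern to Hspb8 and to Hspa1a among those with a mean of at least 5 CPM. Other genes of these lists are given as counts, and a gene that this rule names is not reported here.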

Additional observations from a re-analysis of the deposited data

Results flagged for a closer look

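Among 60 groups of 4 or 5 libraries checked for a library far from the rest of its group, 3 held one, and chance gives about 1 in 20. Hspb8 in aged mouse 2 of experiment 1 was at 162 CPM, while the other 3 aged untreated mice had 283.7 to 299.8 CPM. Bag3 in aged mouse 3 of experiment 1 was at 29.6 CPM against 37.1 to 38.2 CPM in the other 3. Hsp90aa1 in young mouse 2 of experiment 2 was at 3809 CPM against 2149 to 2383 CPM in the other 4.

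Hspb8 moved in opposite directions under the 2 drugs in every library, with log2 fold changes of -1.11 under TRi-1 and 1.01 under auranofin. That difference was not tested, because Hspb8 was chosen for it.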

How the results depend on the processing

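Calls of the tested members kept their direction under every alternative. Members that passed with age in experiment 1 numbered 1 without young mouse 5, aged mouse 3 and TRi-1 mouse 1, and 3 to 5 with each library left out. In experiment 2 they numbered 3 in a fit of all 27 libraries, 2 with only the groups compared and 2 without young mouse 3 and auranofin mouse 4, and 1 to 3 with each library left out. DESeq2 called 1 member for the difference of the age effects. With the replicate block, Bag3 with age in experiment 1 had an adjusted p of 0.052 and Hsp90aa1 over both experiments 0.063, neither of which passed.

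Among all genes, TRi-1 calls (67) became 587 in DESeq2, 167 unfiltered, 172 at 5 CPM, 2 in a fit of all 27, 0 with only the groups compared and 0 without young 5, aged 3 and TRi-1 1. Auranofin calls (3) became 76 in DESeq2, 10 in a fit of all 27 and 8 without young 3 and auranofin 4. Calls for the difference of the age effects (0) became 172 in DESeq2, 6 at 5 CPM, 1 without haemoglobin genes, 1 without young 3 and aged 1 of experiment 1 and 4 without young 3 and auranofin 4. Calls for the difference of the drug effects (3) became 93, 5 at 5 CPM and 14 without young 3 and auranofin 4. With each library left out the numbers were 0 to 164, 3 to 5, 0 to 25 and 2 to 10.

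Deviations of same-numbered libraries correlated at -0.147 to 0.068 over 12 pairs in experiment 1 and at -0.245 to 0.433 over 13 pairs in experiment 2. Differently numbered libraries were not compared, so these values do not decide whether replicate numbers pair the libraries. With the replicate number as a block, TRi-1 calls were 1, auranofin calls 11 and those for the difference of the drug effects 1, and the members that passed were 3, 1 and 3 for age in experiment 1, experiment 2 and both.

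Some members that did not pass changed sign, several of them only when 1 library was left out. Hspa1b with age in experiment 1 was -0.0354 with RLE size factors, -0.0353 in DESeq2, -0.0205 at 5 CPM, -0.0181 in a fit of all 27, -0.0021 with only the groups compared, -0.0937 with the block and -0.0066 without haemoglobin genes. Hspa8 under auranofin was 0.0061 with RLE size factors and in DESeq2, 0.0086 in a fit of all 27, 0.0077 without haemoglobin genes and 0.125 without young 3 and auranofin 4, where Dnajb1 was -0.0059. With the block, Hsph1 under auranofin was -0.032 and the age difference of Dnajb1 0.022. Without young 3 and aged 1 of experiment 1, Hsp90aa1 was 0.138 under TRi-1 and -0.0044 for the drug difference, and Dnajb1 0.042 for the age difference. Without young 5, aged 3 and TRi-1 1 the age difference of Hsph1 was -0.091. With each library left out, Hspa1b ran from -0.33 to 0.28 and Hsph1 from -0.0351 to 0.21 with age in experiment 1, Hsp90aa1 from -0.13 to 0.10 with age in experiment 2 and Hspa8 from -0.0029 to 0.10 over both. Under TRi-1 Hsp90aa1 ran from -0.23 to 0.14, and under auranofin Cryab from -0.13 to 0.72, Hspa1b from -0.10 to 0.94, Hspa8 from -0.20 to 0.12, Dnajb1 from -0.0069 to 0.35 and Hsph1 from -0.13 to 0.47. The age difference ran from -0.24 to 0.15 for Dnajb1 and from -0.0443 to 0.25 for Hsph1, and the drug difference from -0.41 to 0.43 for Cryab, -0.91 to 0.21 for Hspa1b and -0.0048 to 0.39 for Hsp90aa1.

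The settings that leave out 2 or 3 libraries were chosen after seeing the data. The cause of these changes was not tested. RLE size factors moved the median of all genes by at most 0.04 on the log2 scale. Counts of Hspa1b were as low as 2 in a library, where depth limits the value.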
